A study of Caenorhabditis elegans with 12 samples.

Results

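The 10 genes described here encode aspartyl proteases (asp-1, asp-3, asp-4, asp-5, asp-6) and cathepsin-type cysteine proteases (cpr-1, cpr-4, cpr-5, cpr-6, cpl-1) of Caenorhabditis elegans, known from lysosomes or from digestion in the gut. They were taken by gene symbol from a table of 46778 genes, and all 10 were found and passed the filter on low counts in every fit. The set was chosen by family and by measured values of these libraries, since an earlier analysis had shown fewer ribosome footprints per mRNA in ced-3 worms for some of its members. Every value of these genes in ced-3 against wild type is therefore given as a description without a test. The 10 genes are tested only in comparisons of the pmk-1 libraries.

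Whole worms of 3 genotypes were sequenced: ced-3(n717), which carries a mutation in the gene of the cell death caspase CED-3, pmk-1(km25), which carries one in the gene of the p38 MAP kinase PMK-1, and the wild type strain N2 (WT). All were hatched without food for 24 h and then kept at 20 °C on OP50 bacteria for 18 h, a time at which over 90% of WT larvae were at the third larval stage. From each of 6 worm samples, 2 per genotype, 1 library of total mRNA and 1 of ribosome footprints (ribosome-protected fragments, RPF) were made. Each mutant is represented by 1 allele, the stage is fixed by the WT worms, and the worm samples are called biological replicates without a statement that they were separate cultures, so each p measures the spread between these samples.

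Aspartyl proteases of the pepsin and cathepsin D type cut proteins in acid with a pair of aspartate residues, and the papain-like cathepsins B, L and Z use a reactive cysteine. Both kinds are made as inactive precursors that mature in acidic compartments. In nematodes the intestine both digests bacteria in its lumen and holds many lysosome-related granules, and it is a main source of these enzymes. In whole worms, fewer gut cells and less RNA per gut cell cannot be told apart.

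The mRNA libraries held 15471380 to 17150137 counts and the RPF libraries 6708805 to 10115985. Levels are counts scaled to a common library size by TMM within each assay (CPM). The ced-3 gene had 5.43 and 6.42 CPM in ced-3 mRNA, 2.57 and 2.30 CPM in pmk-1 mRNA, and 5.02 and 2.29 CPM in WT mRNA. The pmk-1 gene had 35.5 and 35.3 CPM in pmk-1 mRNA, 37.9 and 41.0 CPM in ced-3 mRNA, and 37.1 and 35.5 CPM in WT mRNA. Counts over a whole gene do not show which part of it an allele changes, so these mRNA levels do not check the genotype labels. In RPF the pmk-1 gene had 25.0 and 25.4 CPM in pmk-1, 42.6 and 48.5 CPM in ced-3, and 47.2 and 52.3 CPM in WT. Its RPF were thus lowest in both pmk-1 samples. The RPF of the ced-3 gene overlapped between ced-3 (5.32 and 3.90 CPM) and WT (5.92 and 3.17 CPM). Replicates were further apart in the mutants than in WT: across genes their log2 CPM correlated at 0.965 (ced-3), 0.967 (pmk-1) and 0.991 (WT) in mRNA, and at 0.951 (ced-3), 0.964 (pmk-1) and 0.982 (WT) in RPF.

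Of the 10 genes, 7 lie on chromosome V and 3 (asp-3, asp-4, cpr-6) on chromosome X, in the Ensembl annotation of WBcel235, the build that the submitters' processing notes name. The genes asp-6 (V, 8267511 to 8268937, minus strand) and asp-5 (V, 8272385 to 8274044, plus strand) are 3447 bases apart with 1 coding gene between them. The gene asp-1 (V, 19049562 to 19050752, minus strand) consists of a single annotated exon with 1188 coding bases, or 396 amino acids. The other coding sequences are 987 to 1332 bases long, so that levels per kilobase differ little in order from levels per gene. Exons of asp-4 share 33 bases with R12H7.4 on the opposite strand, and a piRNA gene of 21 bases lies within cpr-4 on the opposite strand. The use of strand in counting is not given in the sources used here.

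Among the 10 genes, asp-1 had the highest mRNA level per kilobase of exon in all 3 genotypes and cpr-6 or asp-4 the lowest. In WT mRNA asp-1 had 1599 CPM per kilobase, rank 145 of 13490 genes, followed by asp-3 (875), asp-5 (754), asp-6 (722), cpr-5 (634), cpr-1 (300.1), cpr-4 (159), cpl-1 (139), asp-4 (122) and cpr-6 (47.5). The replicates of asp-5 and asp-6 overlapped, as did those of asp-6 and cpr-5, and the other neighbours in this order did not. In RPF per kilobase of coding sequence, asp-1 ranked 180 of 12328 genes in ced-3 worms, 70 in pmk-1 worms and 26 in WT. The ranks of asp-3 were 158 for ced-3, 152 for pmk-1 and 71 for WT. The 10 genes together took 0.764% and 0.659% of mRNA counts in ced-3, 0.714% and 0.630% in pmk-1, and 0.616% and 0.702% in WT. Of RPF counts they took 0.684% and 0.602% in ced-3, 0.936% and 0.880% in pmk-1, and 1.1% and 0.923% in WT. The mRNA shares of the genotypes overlapped, and in RPF both ced-3 libraries lay below the other 4.

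Footprints per mRNA are given as RPF CPM divided by mRNA CPM of the same worm sample, a relative scale on which the median gene had 1.12 to 1.2 in the 6 samples. For 8 of the 10 genes both ced-3 ratios were below both WT ratios, and below both pmk-1 ratios as well. Both ced-3 ratios were below both WT ratios for 15.2% of all genes and above them for 16.5%, and they were below the other 4 ratios for 7.57%. Since the genes were proposed for this pattern, these counts describe the choice. The genes asp-4 and cpl-1 did not share the pattern.

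**Figure D1:**
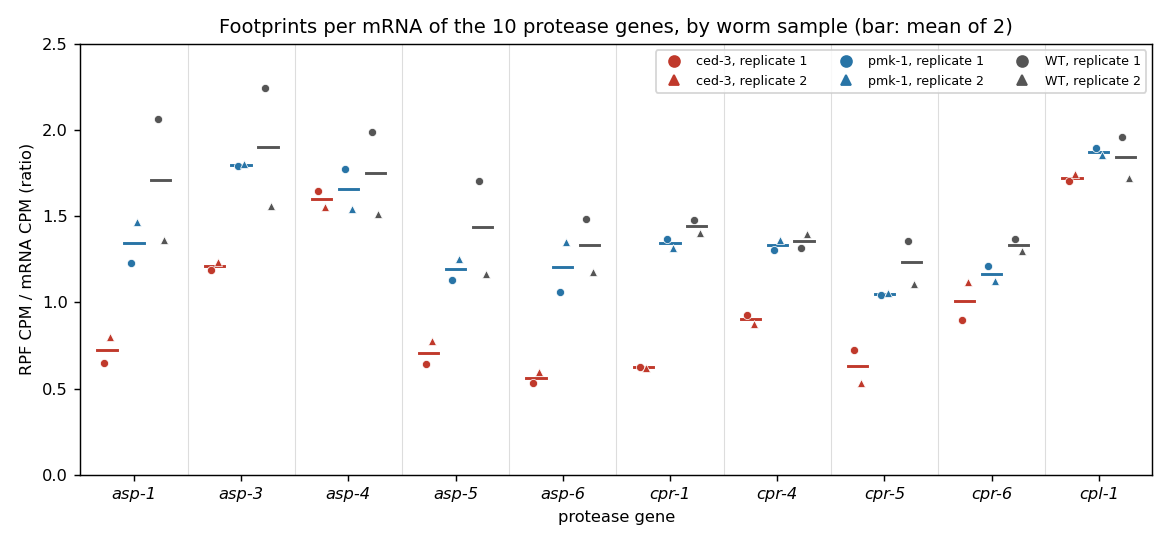
Ratio of RPF CPM to mRNA CPM (linear axis from 0) for each protease gene in the 6 worm samples, with ced-3, pmk-1 and WT from left to right within a gene, points for single samples and bars for the mean of 2. The ced-3 samples lie at or below 0.927 for asp-1, asp-5, asp-6, cpr-1, cpr-4 and cpr-5, while those of asp-4 and cpl-1 lie between 1.55 and 1.74, close to the other genotypes.

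Among the aspartyl proteases the differences were widest in asp-1, asp-6 and asp-5. The gene asp-1, an intestinal protease of the cathepsin D type, had ratios of 0.651 and 0.799 in ced-3, 1.23 and 1.47 in pmk-1, and 2.06 and 1.36 in WT. For asp-6, the neighbour of asp-5, they were 0.534 and 0.594 in ced-3, 1.06 and 1.35 in pmk-1, and 1.49 and 1.18 in WT. The gene asp-5 had 0.641 and 0.778 in ced-3, 1.13 and 1.25 in pmk-1, and 1.70 and 1.17 in WT. In all 3 genes the ced-3 samples stood apart from the other 4. The WT samples were uneven, replicate 1 being the higher. The log2 fold of footprints beyond mRNA in ced-3 against WT, from the interaction of genotype and assay, was -1.17 ± 0.26 for asp-1, -1.17 ± 0.23 for asp-6 and -0.95 ± 0.23 for asp-5 (± SE). Without WT replicate 1 these folds were -0.85, -0.99 and -0.64, and without WT replicate 2 they were -1.51, -1.38 and -1.25.

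The genes asp-3 and asp-4 encode cathepsin D-like enzymes of lysosomes that are known to be needed for necrotic death of worm neurons. They differed from each other. The ratios of asp-3 were 1.19 and 1.23 in ced-3, 1.79 and 1.80 in pmk-1, and 2.24 and 1.56 in WT. Its log2 fold beyond mRNA in ced-3 against WT was -0.58 ± 0.24, and it was -0.28 without WT replicate 1 and -0.87 without WT replicate 2. For asp-4 the ratios were 1.65 and 1.55 in ced-3, 1.78 and 1.54 in pmk-1, and 1.99 and 1.52 in WT. The 3 genotypes overlapped, and the log2 fold of asp-4 was -0.06 ± 0.24.

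Among the cathepsin B-like genes, cpr-1, a gut cysteine protease, showed the closest replicates in ced-3. Its ratios were 0.627 and 0.619 in ced-3, 1.37 and 1.31 in pmk-1, and 1.48 and 1.40 in WT, a log2 fold of -1.15 ± 0.28 in ced-3 against WT. The cathepsin B-like gene cpr-5 had 0.725 and 0.532 in ced-3, 1.04 and 1.05 in pmk-1, and 1.36 and 1.11 in WT. For cpr-4, whose secreted product is known from signalling between irradiated and distant worm tissues, the ratios were 0.927 and 0.878 in ced-3, 1.30 and 1.36 in pmk-1, and 1.32 and 1.40 in WT. In these 3 genes no ced-3 sample reached any sample of the other genotypes. The log2 folds of cpr-5 and cpr-4 were -0.82 ± 0.68 and -0.51 ± 0.37. In cpr-6, another cathepsin B-like gene, the ratios were 0.896 and 1.12 in ced-3, 1.21 and 1.12 in pmk-1, and 1.37 and 1.30 in WT. The higher ced-3 sample of cpr-6 (1.119) was nearly level with the lower pmk-1 sample (1.122).

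The cathepsin L gene cpl-1, which is essential in embryos and known from the moult, kept a high ratio in every sample. It had 1.71 and 1.74 in ced-3, 1.90 and 1.86 in pmk-1, and 1.96 and 1.73 in WT. The ced-3 and WT samples overlapped, and the log2 fold beyond mRNA was -0.03 ± 0.51. A fit with the worm sample as a block removes what mRNA and RPF of a sample share. In it the folds of the 10 genes in ced-3 against WT ran from -1.17 for asp-6 to -0.03 for cpl-1. The SE in that fit was 0.16 for cpr-1, 0.15 for cpr-4, 0.21 for cpr-5, 0.15 for cpr-6 and 0.17 for cpl-1.

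The mRNA levels in ced-3 worms did not follow the ratios. The mRNA of asp-1 was at 1891 and 1431 CPM in ced-3 and 1713 and 2095 CPM in WT, and the genotypes overlapped. The RPF of asp-1 were at 1230 and 1143 CPM in ced-3, against 3533 and 2853 CPM in WT. The log2 fold of asp-1 was -0.20 ± 0.18 in mRNA and -1.43 ± 0.18 in RPF.

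The neighbours asp-6 and asp-5 had the same form. The mRNA of asp-6 was at 845 and 681 CPM in ced-3 and 830.4 and 1010 CPM in WT, and its RPF at 451.5 and 404 CPM in ced-3 and 1233 and 1191 CPM in WT. The mRNA of asp-5 was at 1036 and 876 CPM in ced-3 and 893 and 975 CPM in WT, and its RPF at 664 and 682 CPM in ced-3 and 1522 and 1138 CPM in WT. For both genes the mRNA libraries overlapped and the RPF libraries did not. The RPF log2 folds were -1.5 ± 0.18 for asp-6 and -0.98 ± 0.19 for asp-5.

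For asp-3 both assays were lower in ced-3, with mRNA at 1179 and 983 CPM in ced-3 against 1220 and 1339 CPM in WT, and RPF at 1400 and 1211 CPM in ced-3 against 2737 and 2086 CPM in WT. In cpr-1 the assays went apart. Its mRNA was at 523 and 418 CPM in ced-3 and 335 and 312 CPM in WT, whereas its RPF were at 328 and 259 CPM in ced-3 and 494 and 439 CPM in WT. Neither assay overlapped, and the log2 folds of cpr-1 had opposite signs, 0.54 ± 0.17 in mRNA and -0.67 ± 0.22 in RPF.

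The genes cpr-6 and cpl-1 stood out by higher levels in ced-3 in both assays. The mRNA of cpr-6 was at 191 and 422 CPM in ced-3 and 65.6 and 54.2 CPM in WT, and its RPF at 171 and 472 CPM in ced-3 and 89.9 and 70.5 CPM in WT. The mRNA of cpl-1 was at 385 and 661 CPM in ced-3 and 162 and 169.5 CPM in WT, and its RPF at 658 and 1153 CPM in ced-3 and 318 and 292 CPM in WT. No ced-3 library overlapped WT in either gene, and ced-3 replicate 2 was the higher in all 4 pairs of libraries. The mRNA log2 folds were 2.35 ± 0.44 for cpr-6 and 1.66 ± 0.33 for cpl-1, and 1.68 and 1.23 without ced-3 replicate 2. The RPF log2 folds of cpr-6 and cpl-1 were 2.00 ± 0.54 and 1.57 ± 0.34, and 1.09 and 1.1 without that sample.

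The opposite replicate was the higher for cpr-5 and cpr-4. The mRNA of cpr-5 was at 879 and 433 CPM in ced-3 and 689 and 839.6 CPM in WT, and its RPF at 638 and 230.2 CPM in ced-3 and 935.5 and 930.0 CPM in WT. The RPF log2 fold of cpr-5 was -1.1 ± 0.48. Leaving out ced-3 replicate 1 gave -2.02, and leaving out ced-3 replicate 2 gave -0.55. For cpr-4 the RPF log2 fold was -0.19 ± 0.26, and it was 0.13 without ced-3 replicate 2. The mRNA and RPF of asp-4 overlapped between ced-3 and WT.

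**Figure D2:**
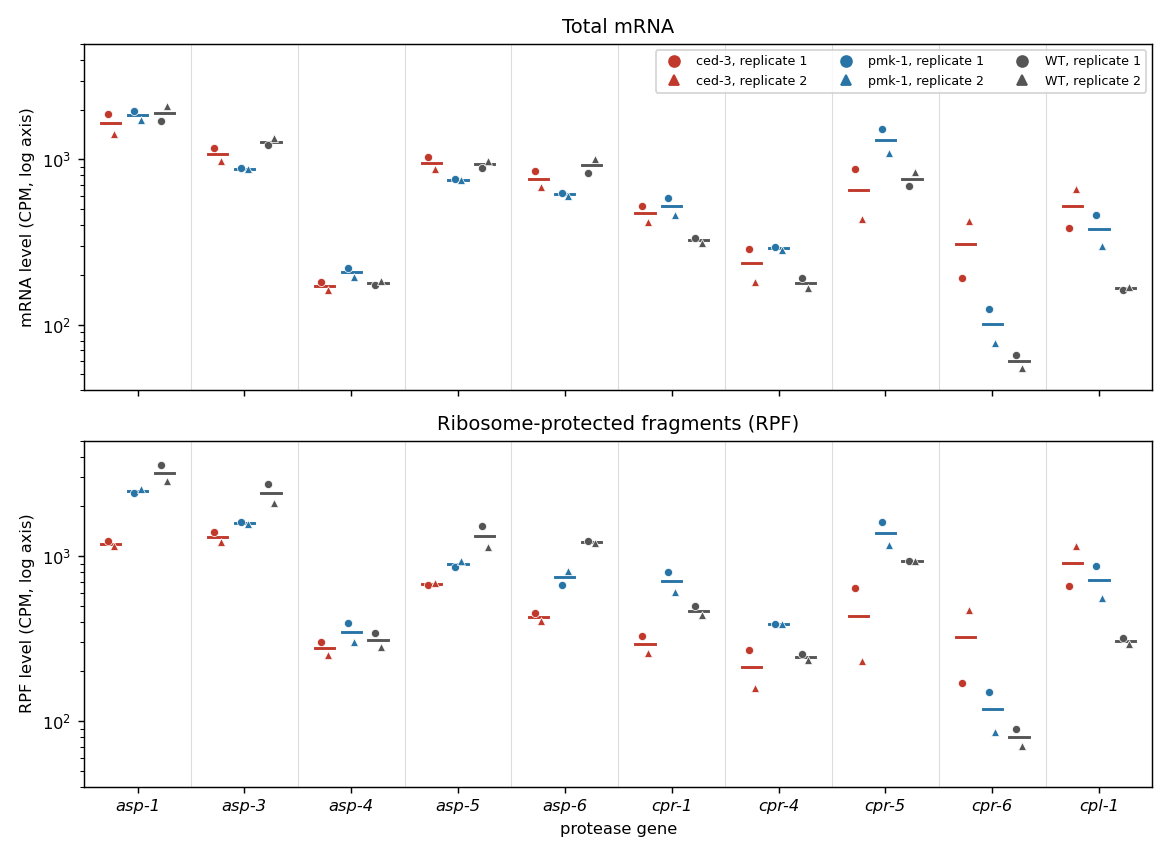
Levels of the 10 protease genes in CPM on a log axis, with total mRNA above and ribosome-protected fragments below, ced-3, pmk-1 and WT from left to right within a gene, points for single libraries and bars for the mean of 2. In mRNA the ced-3 points of asp-1, asp-5 and asp-6 overlap those of WT in range, with the lower ced-3 point below both WT points. For asp-5 the higher ced-3 point lies above both. In RPF the ced-3 points of these genes lie below WT. Those of cpr-6 and cpl-1 lie above WT in both panels.

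In mRNA, both ced-3 libraries were above both WT libraries for 3 of the 10 genes (30.1% of all genes) and below for 1 (29.7%). In RPF they were above for 2 (29.0% of all genes) and below for 6 (26.6%). The median log2 fold of the 10 genes in ced-3 against WT was -0.01 in mRNA and -0.78 in RPF, and -0.70 for footprints beyond mRNA, where the medians of all genes were 0.00, 0.01 and 0.06.

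For pmk-1 against WT, tests were run with edgeR's quasi-likelihood test and Benjamini-Hochberg adjustment over all genes. The fits took their spread from all 3 genotypes, so SE and intervals also carry the spread between ced-3 replicates. The tests are not independent of the choice of genes. Few footprints per mRNA in ced-3 were seen against other libraries, a choice that can favour genes with a high ratio in WT. In mRNA the 5 cysteine proteases and asp-4 lay above WT and asp-3, asp-5 and asp-6 below it, but none of the 10 genes passed the threshold of 0.05, where 0.421% of all genes did. Unadjusted p was below 0.05 for 5 of the 10 and for 9.51% of all genes, and DESeq2 called 1 of the 10, cpl-1, among 377 genes in all. Both pmk-1 libraries were above both WT libraries for 6 of the genes (22.5% of all genes) and below both for 3 (23.6%).

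The largest mRNA difference was that of cpl-1, with 461 and 299.5 CPM in pmk-1 and 162 and 169.5 CPM in WT. The groups did not overlap, and the log2 fold was 1.2 ± 0.32 (95% interval 0.39 to 2.00, adjusted p = 0.31 by edgeR and 0.026 by DESeq2). The gene cpr-1 had 584 and 458 CPM in pmk-1 and 335 and 312 CPM in WT, a log2 fold of 0.69 ± 0.18 (adjusted p = 0.27). For cpr-4, with 296.5 and 284 CPM in pmk-1 and 192 and 167 CPM in WT, it was 0.69 ± 0.23 (adjusted p = 0.40). The groups did not overlap in cpr-5 (1530 and 1098 CPM in pmk-1, 689 and 839.6 CPM in WT) or in cpr-6 (124 and 76.8 CPM in pmk-1, 65.6 and 54.2 CPM in WT) either. The intervals of their log2 folds, -0.14 to 1.70 and -0.33 to 1.82, included 0.

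Among the aspartyl proteases, asp-3 had 889.5 and 869 CPM in pmk-1 and 1220 and 1339 CPM in WT, a log2 fold of -0.54 ± 0.13 (adjusted p = 0.26). For asp-6, with 629 and 604 CPM in pmk-1 and 830.4 and 1010 CPM in WT, it was -0.58 ± 0.16 (adjusted p = 0.31). The fold of asp-5 was -0.31 ± 0.13 (adjusted p = 0.53) and that of asp-1 -0.04 ± 0.18 (adjusted p = 0.96), with overlapping libraries in asp-1 alone of these 4. In asp-4 both pmk-1 libraries were above WT, by a log2 fold of 0.22 ± 0.13 (adjusted p = 0.66).

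In RPF the order was much the same, and by edgeR none of the 10 genes passed, where 0.182% of all genes did. Unadjusted p was below 0.05 for 6 of the 10 and for 8.68% of all genes, and DESeq2 called asp-6, among 281 genes in all. The RPF of asp-6 were at 668 and 815 CPM in pmk-1 and 1233 and 1191 CPM in WT, a log2 fold of -0.71 ± 0.17 (adjusted p = 0.34 by edgeR and 0.031 by DESeq2). Those of cpl-1 were at 874 and 556 CPM in pmk-1 and 318 and 292 CPM in WT, a log2 fold of 1.23 ± 0.34 (adjusted p = 0.40). Both pmk-1 libraries were above both WT libraries for 4 genes (22% of all genes) and below for 4 (21.8%). The genes below were asp-1, asp-3, asp-5 and asp-6.

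**Figure D3:**
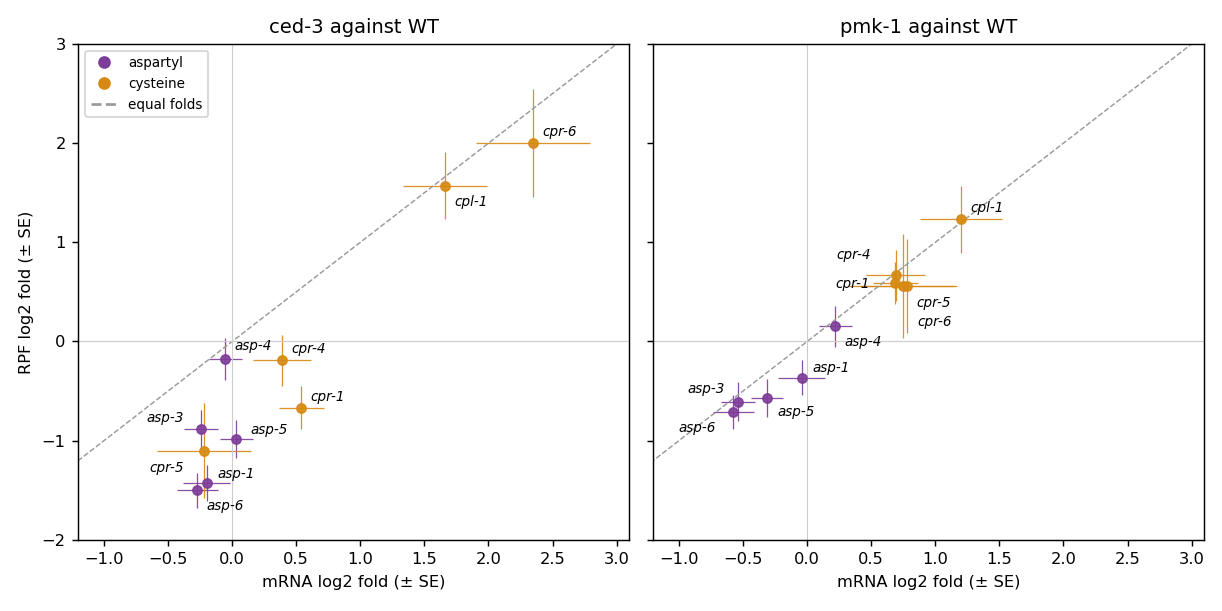
Log2 fold in RPF (vertical) against log2 fold in mRNA (horizontal) of each protease gene, ± SE from the edgeR fits, for ced-3 against WT on the left and pmk-1 against WT on the right, with a dashed line where both folds are equal. Both panels share the WT libraries. In the left panel asp-1, asp-5, asp-6, cpr-1 and cpr-5 lie well below the line, and in the right panel the points run along it from asp-6 (-0.58 in mRNA, -0.71 in RPF) to cpl-1 (1.2 in mRNA, 1.23 in RPF), with asp-1 farthest below (-0.04 in mRNA, -0.37 in RPF).

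Footprints beyond mRNA differed little between pmk-1 and WT. The log2 folds of the 10 genes lay between -0.32 for asp-1 and 0.03 for cpl-1, and 9 of the 10 were negative, as were 6594 of 13698 genes in all. By edgeR none passed, and none had an unadjusted p below 0.05. By DESeq2 none of the 10 passed either. Of all genes 0.00% passed by edgeR, and 1.26% (172) had an unadjusted p below 0.05. In this fit, which does not pair mRNA and RPF of a worm sample, the intervals do not exclude a difference. That of asp-1 ran from -0.91 to 0.27, that of asp-5 from -0.77 to 0.26, and that of cpr-6, the widest, from -1.94 to 1.57. The SE of cpr-6 was 0.765 there. With worm samples paired, the fold of cpr-6 was -0.20 ± 0.15 and that of asp-1 -0.32 ± 0.24, and every adjusted p of the 10 genes was 1.0, where 0.0146% of all genes passed. Both pmk-1 ratios were below both WT ratios for cpr-1, cpr-5 and cpr-6 (14% of all genes) and above for none (16.7%).

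Within pmk-1 worms, RPF could be set against mRNA as a test that uses neither ced-3 nor WT levels in its contrast. It is not independent of the choice of genes either, since that choice can favour genes with a high ratio in pmk-1. Its spread was estimated from all 12 libraries. By edgeR 2 of the 10 genes had more RPF than the scaling of all genes gives, asp-3 (log2 fold 0.63 ± 0.17, adjusted p = 0.017) and asp-4 (0.52 ± 0.17, adjusted p = 0.042), and none had fewer. Of all genes 14.7% passed as higher and 19.6% as lower (34.3% in either direction), so the share among the 10 is near that background. With worm samples paired, cpl-1 passed as well (0.69 ± 0.12, adjusted p = 0.00014), where 27.7% of all genes passed as higher and 26.7% as lower (54.4% in either direction). The call of asp-3 was lost when pmk-1 replicate 1 or pmk-1 replicate 2 was left out (adjusted p = 0.19 in both). The call of asp-4 was lost without WT replicate 1 (adjusted p = 0.079), WT replicate 2 (0.099), pmk-1 replicate 1 (0.30) or pmk-1 replicate 2 (0.13), by edgeR. With the pmk-1 libraries alone its adjusted p was 0.097. By the same edgeR test 1 of 6 other aspartyl proteases (asp-14, 1.45 ± 0.20, adjusted p = 0.00063) and 5 of 11 serine carboxypeptidases had more RPF than mRNA. None of these 2 lists' genes had fewer. Of 8 other cathepsin-type genes, a list that counts the legumain gene lgmn-1 among the 8, none passed in either direction. Of 6 calpains 2 had more and 1 had fewer. More RPF was also called for 1 of 2 cystatins, 6 of 18 other lysosomal hydrolases, 5 of 22 proton pump subunits and 6 of 12 lysosomal membrane genes, and fewer for none of them.

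Lists of other proteases and of lysosomal genes were set beside the 10. Among 6 other aspartyl protease genes that passed the filter, asp-14 fell in pmk-1 mRNA to 51.5 ± 7.49 CPM, against 160 ± 23.4 CPM in WT (SD, n = 2 each), a log2 fold of -1.63 ± 0.17 with an adjusted p of 0.024 by edgeR. No gene of that list passed without WT replicate 1, without WT replicate 2 or without pmk-1 replicate 1. Among 11 serine carboxypeptidase genes the prolyl carboxypeptidase-like gene pcp-2 fell in pmk-1 mRNA to 44.5 ± 0.477 CPM, against 165 ± 17.6 CPM in WT, a log2 fold of -1.89 ± 0.13 (adjusted p = 0.0076 by edgeR). The pcp-2 gene also fell in pmk-1 RPF (-1.67 ± 0.17, adjusted p = 0.044) and in ced-3 mRNA (-0.89 ± 0.12, adjusted p = 0.043). No gene of that list passed in any of these 3 comparisons without either of the WT libraries. The call in pmk-1 RPF was also lost without pmk-1 replicate 1, and that in ced-3 mRNA without ced-3 replicate 2.

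Among 8 other cathepsin-type genes, cpz-1, the cathepsin Z gene known to act in moulting, rose in ced-3 mRNA to 231 ± 132 CPM, against 18.5 ± 4.8 CPM in WT, a log2 rise of 3.64 ± 0.49 (adjusted p = 0.045 by edgeR). The cathepsin B-like gene cpr-2 rose to 4.21 ± 0.108 CPM in ced-3, against 0.754 ± 0.0144 CPM in WT (log2 rise 2.47 ± 0.27, adjusted p = 0.039). Of all genes 1.77% passed in this comparison, 1.40% as higher and 0.369% as lower. Without WT replicate 1 or without WT replicate 2 none of the 8 passed, and without ced-3 replicate 2 only 1 did. None of 6 calpain genes, 2 cystatin genes, 18 other lysosomal hydrolase genes, 22 proton pump subunit genes and 12 lysosomal membrane and biogenesis genes passed in mRNA, RPF or footprints beyond mRNA, for either mutant against WT, by edgeR. In ced-3 RPF 0.0554% of all genes passed. There, unadjusted p was below 0.05 for 12 of the 22 pump genes, 4 of the 18 hydrolases, 3 of the 12 membrane genes, 1 of the 2 cystatins and 0 of the 6 calpains, where it was for 23.7% of all genes. The shares of hydrolases and membrane genes are near that background.

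For footprints beyond mRNA in ced-3 against WT no gene of any list passed by edgeR, 1.61% of all genes (221 of 13698) had an unadjusted p below 0.05, and DESeq2 called 1 gene in all. The median log2 fold was -0.37 over 6 other aspartyl proteases and -0.45 over 8 other cathepsin-type genes. It was -0.06 over 11 serine carboxypeptidases, -0.15 over 22 pump subunits, 0.01 over 18 lysosomal hydrolases, 0.05 over 12 lysosomal membrane genes, 0.02 over 6 calpains and 0.32 over 2 cystatins. Unadjusted p was below 0.05 for 2 of the other aspartyl proteases, 2 of the hydrolases and none of the remaining genes of these lists.

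Summed over a list, RPF per mRNA of the other aspartyl proteases was 0.902 and 0.924 in ced-3, 1.26 and 1.33 in pmk-1, and 1.46 and 1.25 in WT. For the other cathepsin-type genes it was 0.668 and 0.741 in ced-3, 1.19 and 1.15 in pmk-1, and 1.02 and 1.18 in WT. For the 10 proteases themselves it was 0.825 and 0.955 in ced-3, 1.31 and 1.41 in pmk-1, and 1.83 and 1.33 in WT. In these 3 lists the ced-3 samples lay below the other 4. They also did so, by less, in the proton pump subunits, with 1.32 and 1.5 in ced-3 and 1.52 to 1.72 in the other samples, in the lysosomal membrane genes, with 1.79 and 1.77 in ced-3 and 1.85 to 2.10 in the others, and in the other hydrolases, with 1.06 and 1.19 in ced-3 and 1.30 to 1.52 in the others. The cystatins lay above, with 2.03 and 2.19 in ced-3 and 1.76 to 1.95 in the others. The calpains (1.73 and 1.77 in ced-3, 1.57 to 2.13 in the others) and the serine carboxypeptidases (1.16 and 1.51 in ced-3, 1.42 to 1.55 in the others) overlapped. In the epidermis markers described below, the summed ratio was 1.44 and 1.72 in ced-3 and at least 2.44 in the others. The median log2 fold beyond mRNA over those 8 genes was only -0.03. A summed ratio therefore does not stand for the single genes of a list. The ced-3 samples of the summed intestine markers lay below the other 4 too. A lower summed ratio in ced-3 was thus not particular to the protease lists.

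**Figure D4:**
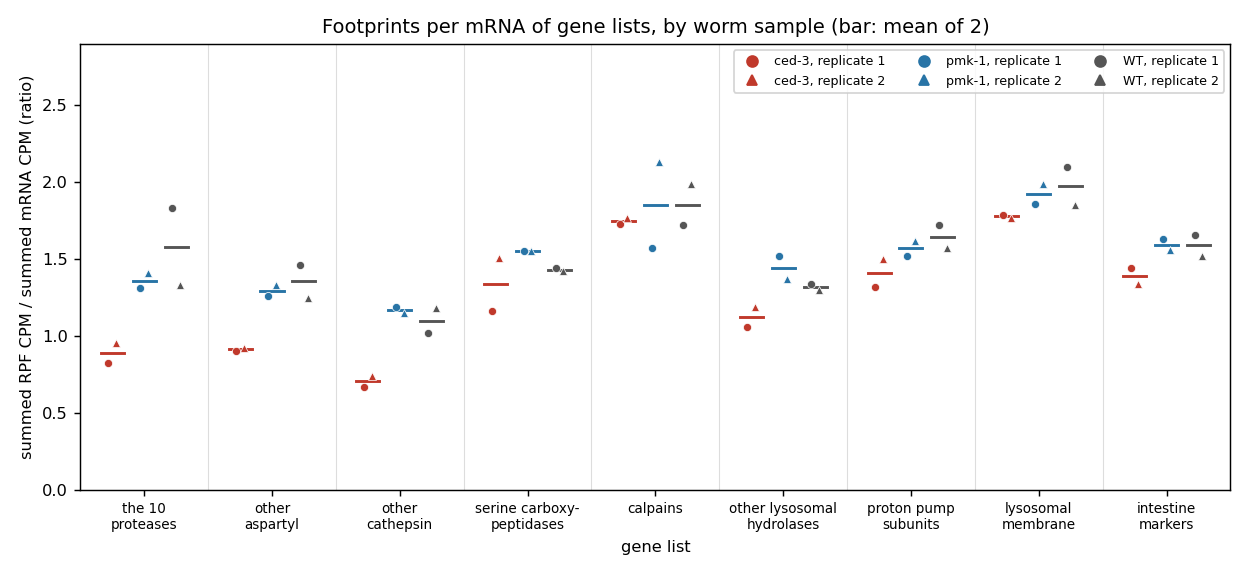
Ratio of summed RPF CPM to summed mRNA CPM (linear axis from 0) of gene lists in the 6 worm samples, with ced-3, pmk-1 and WT from left to right within a list, points for single samples and bars for the mean of 2. The ced-3 samples lie below 1 in the 10 proteases, the other aspartyl and the other cathepsin-type genes, and above 1 in the remaining lists.

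Some tissue markers differed in ced-3 mRNA as well. All 11 intestine markers, of which vha-6 is also a pump subunit, were detected in every library, and their summed level was 2481 to 3206 CPM in ced-3, 3453 to 3612 CPM in pmk-1 and 4260 to 4284 CPM in WT mRNA. In RPF the intestine markers summed to 3329 to 4619 CPM in ced-3, 5629 to 5632 CPM in pmk-1 and 6499 to 7070 CPM in WT. Of these 11 markers, 1 fell in ced-3 mRNA by edgeR (ifb-2, an intestinal intermediate filament gene, log2 fold -1.60 ± 0.16, adjusted p = 0.036) and none passed in RPF. Unadjusted p by edgeR was below 0.05 for 5 of the 11 in ced-3 mRNA, where it was for 3183 of 13536 genes in all. In ced-3 RPF it was for 6 of the 11 and for 23.7% of all genes. In both assays 8 of the 11 had negative folds, and ges-1, mtl-2 and elt-7 had positive ones (0.28, 0.27 and 0.41 in mRNA, none past the test), so the sum does not stand for every marker. Without WT replicate 1 or without WT replicate 2 no intestine marker passed in ced-3 mRNA. The RPF per mRNA of the summed markers was 1.44 and 1.34 in ced-3, 1.63 and 1.56 in pmk-1, and 1.66 and 1.52 in WT. Epidermis markers were 8 genes, all detected in every library. Their mRNA summed to 2815 to 5937 CPM in ced-3, 799 to 924 CPM in pmk-1 and 761 to 836 CPM in WT. In ced-3, replicate 2 was the higher, as for cpr-6 and cpl-1 in ced-3. None of the 8 passed in pmk-1 mRNA by edgeR. Their log2 folds there ran from -0.48 to 3.31, so close sums in pmk-1 and WT do not stand for every marker. In ced-3 mRNA the cuticle collagen genes sqt-3 (log2 rise 3.93 ± 0.40, adjusted p = 0.039) and rol-6 (3.89 ± 0.46, adjusted p = 0.042) rose by edgeR. Without WT replicate 1 or WT replicate 2 no epidermis marker passed, and without ced-3 replicate 2 only 1 did. The folds of 5 of the 8 epidermis markers, all of them collagen genes, were positive in mRNA, and those of elt-1 (-0.38), elt-3 (-0.28) and col-10 (-0.05) were negative. For footprints beyond mRNA in ced-3 the median log2 fold was -0.03 over the 8 epidermis markers, with a range of -0.23 to 0.11, and -0.16 over the 11 intestine markers. No body wall muscle (8), pharynx (6), neuron (8) or germline (8) marker passed in ced-3 mRNA or RPF by edgeR. Their median log2 folds in ced-3 mRNA were -0.04 for muscle, -0.29 for pharynx, 0.17 for neurons and 0.02 for germline, with unadjusted p below 0.05 for 0, 2, 2 and 0 genes in that order. The part of the tissues these markers stand for in the protease values was not tested. The summed mRNA of the 10 proteases, at 6249 to 7400 CPM in ced-3, 6362 to 7462 CPM in pmk-1 and 6273 to 7147 CPM in WT, overlapped between genotypes.

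Outside the set, the genes with at least 5 CPM whose log2 CPM followed the mean of the 10 proteases most closely over the 12 libraries were gip-1 (r = 0.880), mtcu-1 (0.867), tsp-20 (0.861), clec-56 (0.849) and ndx-2 (0.845). Each r spans mRNA and RPF libraries together, so a similar step between the assays can raise it as well as similar genotype differences. The libraries share worm samples, and the mean of the 10 hides opposite movements such as those of asp-6 and cpl-1.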

How the data were processed

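The authors deposited a table of raw read counts per gene for 12 libraries, in whole numbers and not normalized. Per the submitters' processing notes, Bowtie2, STAR and HTSeq were used with build WBcel235; versions, roles, strand and read filters are not given in the sources used here. Counts were analysed with edgeR 4.0.16 in R 4.3.3 (TMM, filterByExpr with a minimum count of 10 and total of 15, robust glmQLFit, glmQLFTest, Benjamini-Hochberg over all genes, threshold 0.05). There was 1 fit of 6 mRNA libraries (13536 genes), 1 of 6 RPF libraries (12633 genes) and 1 of all 12 (13698 genes), whose genotype by assay interaction gave footprints beyond mRNA. Each SE was taken as the absolute log2 fold over the root of its F value. Exon and coding lengths came from the Ensembl annotation of WBcel235. DESeq2 1.42.0 was an alternative. Fits were tested on simulated counts with larger changes than any fold of the 10 genes in pmk-1 against WT. The simulated spread was smaller than in the main fits, and mRNA and RPF of a sample were drawn separately. That test therefore does not show how well such folds are found in these data.

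Per the labels, mRNA and RPF came from the same worm sample, and deviations of same-numbered libraries correlated across genes at 0.72 (ced-3), 0.82 (pmk-1) and 0.27 (WT), so a fit with worm samples paired was run. Replicate libraries differed by more than counting noise (chi-square per degree of freedom of 14.1 to 49.8). All 10 members are named; other genes could be named if past the threshold (up to 4 per list and comparison) or among the 5 most alike with a mean of at least 5 CPM. Members and lists were chosen with earlier results of these data known. No sequences are shown.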

Additional observations from a re-analysis of the deposited data

How the results depend on the processing

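Every fold of the 10 genes in pmk-1 against WT kept its side of the threshold under each alternative, except cpl-1 in mRNA and asp-6 in RPF, which passed with DESeq2. DESeq2 thus called 1 member as higher in mRNA and 1 as lower in RPF. Within pmk-1, members with more RPF than mRNA numbered 2, against 3 with worm samples paired and 1 in a fit of pmk-1 alone.

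Over all genes, pmk-1 against WT in mRNA gave 57 calls, and 377 by DESeq2, 221 without the filter on low counts, 27 with the replicate number as a block and 2 to 388 when a worm sample was left out. In RPF the 23 calls became 281 (DESeq2), 212 (no filter), 0 (block), 47 (compared genotypes alone) and 0 to 205 (leave-outs). In ced-3 against WT the 240 mRNA calls became 1337 (DESeq2), 827 (no filter), 0 (block) and 0 to 1479 (leave-outs). The 7 RPF calls became 1314 (DESeq2), 1012 (no filter), 0 (block), 198 (alone) and 0 to 1249 (leave-outs). For footprints beyond mRNA the 0 calls in pmk-1 became 5 (DESeq2), 2 (no filter), 2 (worm samples paired) and 0 to 1 (leave-outs), and the 0 in ced-3 became 1 (DESeq2), 3 (paired) and 0 (leave-outs). RPF against mRNA in pmk-1 gave 4703 calls, 7449 with worm samples paired and 2012 to 5176 in leave-outs. The cause of these shifts was not tested. Replicate numbers of different genotypes share only a number (correlations of -0.21 to -0.034), so that block is no pairing.

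Among the tested folds of the 10 genes, signs turned only for ones that passed no test, all but 1 of them by leaving out a worm sample, and the ranges over the leave-outs are given. In pmk-1 against WT the mRNA fold of asp-1 ran from -0.18 to 0.11, turning without WT replicate 2 or pmk-1 replicate 2 (0.047), and the RPF fold of asp-4 from -0.055 to 0.32, turning without WT replicate 2 (-0.0023) or pmk-1 replicate 1. The folds of footprints beyond mRNA ran from -0.39 to 0.23 (asp-3), -0.34 to 0.16 (asp-4), -0.59 to 0.054 (asp-5) and -0.38 to 0.051 (asp-6), all turning without WT replicate 1. They ran from -0.059 to 0.015 (cpr-4, turning without pmk-1 replicate 1) and -0.15 to 0.15 (cpl-1, turning without WT replicate 2). Leaving out pmk-1 replicate 2 also turned asp-4 (0.028), and leaving out pmk-1 replicate 1 also turned asp-6 (0.042). RPF against mRNA in pmk-1 ran from -0.049 to 0.10 (asp-5) and -0.14 to 0.21 (asp-6), turning without pmk-1 replicate 2. For cpr-6 it ran from -0.058 to 0.048, turning without WT replicate 2 (-0.014) or pmk-1 replicate 1, and it was -0.0048 with no filter.

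The lowest count of a member in any library was 666, so the spread between replicates, more than depth, limits these values.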
